A study of Mus musculus with 4 samples.

Results

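The 10 genes described here belong to transforming growth factor beta (TGF-beta) and bone morphogenetic protein (BMP) signalling. They were taken by symbol from the deposited comparison of 2D- and 3D-cultured cells, namely Tgfb1, Tgfb2, Tgfb3, Tgfbr1, Tgfbr2, Smad7, Skil, Tgfbi, Bmp4 and Id1, and all 10 were found among its 31828 genes. AML12 is an immortalised hepatocyte line from a mouse that carried a human TGF-alpha transgene (TGF-alpha, in spite of its name, is a ligand of the EGF receptor and not of the receptors described here). Cells of both cultures were first grown for 48 h in medium with 10% fetal calf serum, insulin, transferrin, selenium and dexamethasone, then replated. In 2D they formed a layer on a dish and were given 1 mM hydroxyurea, which blocks DNA replication, at 50% confluence for 24 h. In 3D they were embedded in Matrigel, a basement membrane extract, and after 24 h of growth were given the same dose for 36 h. Every library thus came from hydroxyurea-arrested cells, and the culture and the length of the treatment cannot be told apart. There were 2 libraries of each culture and 4 in all. The labels do not say whether these came from separate cultures, so p-values measure the spread between libraries, which may be technical.

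TGF-beta ligands are secreted in a latent form, are released outside the cell, and bind the receptor Tgfbr2, which then recruits and activates Tgfbr1. The active receptors phosphorylate SMAD proteins that enter the nucleus with Smad4, and among the genes they switch on are Smad7 and Skil, which restrain the same pathway. BMP ligands such as Bmp4 use other receptors and another set of SMADs, with Id1 as a classical target. In the liver, TGF-beta is known for arresting hepatocyte growth and for driving fibrosis, and BMP signalling for controlling the iron hormone hepcidin.

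Expression is given as TPM, transcript abundance corrected for length and scaled to a fixed total per library, so that levels of different genes within a library can be compared. Replicates were close, with a Pearson correlation of log2(TPM + 1) across genes of 0.991 in 2D and 0.992 in 3D, against 0.951 to 0.952 between cultures. Of 8 hepatocyte markers, Serpina1a, Ahsg and Fgb stayed below 0.1 TPM in every library. Alb was at 0.819 and 1.20 TPM in 2D and at 12.7 and 10.0 TPM in 3D. The hepatocyte identity given by the labels thus rests here on the other markers, of which some were low in 2D. Hnf4a was at 56.7 and 57.6 TPM in 2D and at 164 and 156 TPM in 3D. Trf was at 19.3 and 18.4 TPM in 2D and at 227 and 231 TPM in 3D. Ttr was at only 3.98 and 3.11 TPM in 2D, against 88.1 and 80.9 TPM in 3D. Apoa1 was at 5.48 and 4.30 TPM in 2D and at 11.04 and 10.95 TPM in 3D. Together the 8 markers ran from 84.6 to 86.2 TPM in 2D and from 489 to 503 TPM in 3D. The 5 biliary markers summed to 2294 to 2401 TPM in 2D and 2269 to 2357 TPM in 3D, most of it from Krt19, Krt7 and Spp1, with Epcam at or near 0. These sums hide opposite shifts. Spp1 rose from 166 and 138 TPM in 2D to 764 and 786 TPM in 3D, and Sox9 was higher too. Krt19 fell from 1728 and 1647 TPM to 1174 and 1226 TPM, and Krt7 from 492 TPM in both 2D libraries to 307 and 320 TPM. The 5 endothelial markers summed to 0.771 to 1.70 TPM. The 5 stellate or fibroblast markers in the table summed to 35.4 to 38.4 TPM in 2D and 18.9 to 19.8 TPM in 3D, mostly from Des. The 5 leukocyte markers summed to 18.6 to 26.4 TPM, mostly from Cd68, with Adgre1 listed at 0 in all but 1 library. In bulk RNA, fewer cells of a type and less RNA per cell cannot be told apart, and the part of such shifts in the results was not tested.

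The upstream windows of both receptor genes and of Bmp4, which rose in 3D, are shown beside those of Tgfb1 and Tgfb2, which passed no threshold, so that their base composition and short motifs can be compared. Each line gives the 250 bases before the RefSeq start (GRCm38.p6), 5′ to 3′ on the strand of the gene. Capitals mark matches, on either strand, to CAGAC (a SMAD-binding element), GGCGCC (a GC-rich SMAD site), GGGCGG (a GC box) and TATAA (the core of a TATA box). No base was shared by 2 motifs in these windows. Windows were kept for 6 of the 10 genes, and none is given for Tgfb3, Smad7, Skil and Id1. The window of Tgfbi is not shown and overlaps an exon of Tgfbi itself. It was 62.4% G or C, with 2 CAGAC, 1 GGCGCC and 1 GGGCGG.
Tgfbr1: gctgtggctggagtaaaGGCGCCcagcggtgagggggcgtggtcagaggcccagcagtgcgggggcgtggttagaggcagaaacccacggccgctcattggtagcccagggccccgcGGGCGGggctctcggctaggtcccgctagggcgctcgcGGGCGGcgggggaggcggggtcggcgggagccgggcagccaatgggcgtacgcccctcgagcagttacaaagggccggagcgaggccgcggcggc
Tgfbr2: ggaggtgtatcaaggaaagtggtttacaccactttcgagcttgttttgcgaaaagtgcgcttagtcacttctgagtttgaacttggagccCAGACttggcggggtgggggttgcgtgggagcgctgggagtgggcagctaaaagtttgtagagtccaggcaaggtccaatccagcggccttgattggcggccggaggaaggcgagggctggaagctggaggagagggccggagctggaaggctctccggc
Bmp4: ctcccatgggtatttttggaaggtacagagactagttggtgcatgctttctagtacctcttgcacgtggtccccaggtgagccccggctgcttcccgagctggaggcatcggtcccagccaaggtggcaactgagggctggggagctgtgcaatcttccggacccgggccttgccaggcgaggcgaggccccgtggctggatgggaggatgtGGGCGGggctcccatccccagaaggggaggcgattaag
Tgfb1: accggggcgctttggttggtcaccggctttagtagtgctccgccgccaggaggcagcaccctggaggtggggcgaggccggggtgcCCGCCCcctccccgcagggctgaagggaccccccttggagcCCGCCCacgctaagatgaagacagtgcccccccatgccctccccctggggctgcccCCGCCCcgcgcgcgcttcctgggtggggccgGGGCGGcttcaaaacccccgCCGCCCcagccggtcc
Tgfb2: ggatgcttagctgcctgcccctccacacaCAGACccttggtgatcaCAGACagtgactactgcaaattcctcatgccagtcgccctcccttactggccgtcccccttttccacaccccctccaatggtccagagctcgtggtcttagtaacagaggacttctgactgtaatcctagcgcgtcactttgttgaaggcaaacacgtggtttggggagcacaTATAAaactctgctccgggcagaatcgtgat

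Of all 32851 windows of this length in the table, 42.2% held CAGAC, 9.59% GGCGCC, 32.7% GGGCGG and 22.8% TATAA. Tgfbr1 (chr4:47352972-47353221, plus strand) was 74.8% G or C, with 1 GGCGCC and 2 GGGCGG. Tgfbr2 (chr9:116175364-116175613, minus strand) was 58.4% G or C and held 1 CAGAC. Bmp4 (chr14:46390670-46390919, minus strand) was 63.2% G or C and held 1 GGGCGG. A further RefSeq start of Tgfbr1 lies inside the gene, and its window (chr4:47385966-47386215, not shown) was 52.8% G or C, with 1 CAGAC and no GGGCGG, so what Tgfbr1 has in common with the other windows depends on the start taken. The one shown ends at the base before the deposited start of the gene. The Tgfb1 window (chr7:25686752-25687001, plus strand) was 75.2% G or C, with 5 GGGCGG, whereas that of Tgfb2 (chr1:186705990-186706239, minus strand) was 53.6% G or C, with 2 CAGAC and 1 TATAA. The median over all windows was 52.4%. A match is a string of letters and not a measured binding site.

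In both cultures Id1 had the highest level of the 10 genes and Tgfbi the lowest. In 2D the order of mean TPM was Id1 (131), Tgfbr2 (61.8), Tgfb1 (57.0), Smad7 (39.3), Skil (33.6), Tgfbr1 (31.4), Bmp4 (7.41), Tgfb2 (3.80), Tgfb3 (1.97) and Tgfbi (0.134). Tgfbr2 and Tgfb1 were the neighbours in that order whose libraries overlapped. In 3D the order was Id1 (372), Tgfbr2 (89.4), Tgfbr1 (57.8), Tgfb1 (54.5), Smad7 (27.2), Skil (25.4), Bmp4 (22.8), Tgfb2 (3.88), Tgfb3 (2.79) and Tgfbi (0.355), and no neighbours overlapped. Tgfbr1 thus stood below Tgfb1, Smad7 and Skil in 2D and above all of them in 3D.

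**Figure D1:**
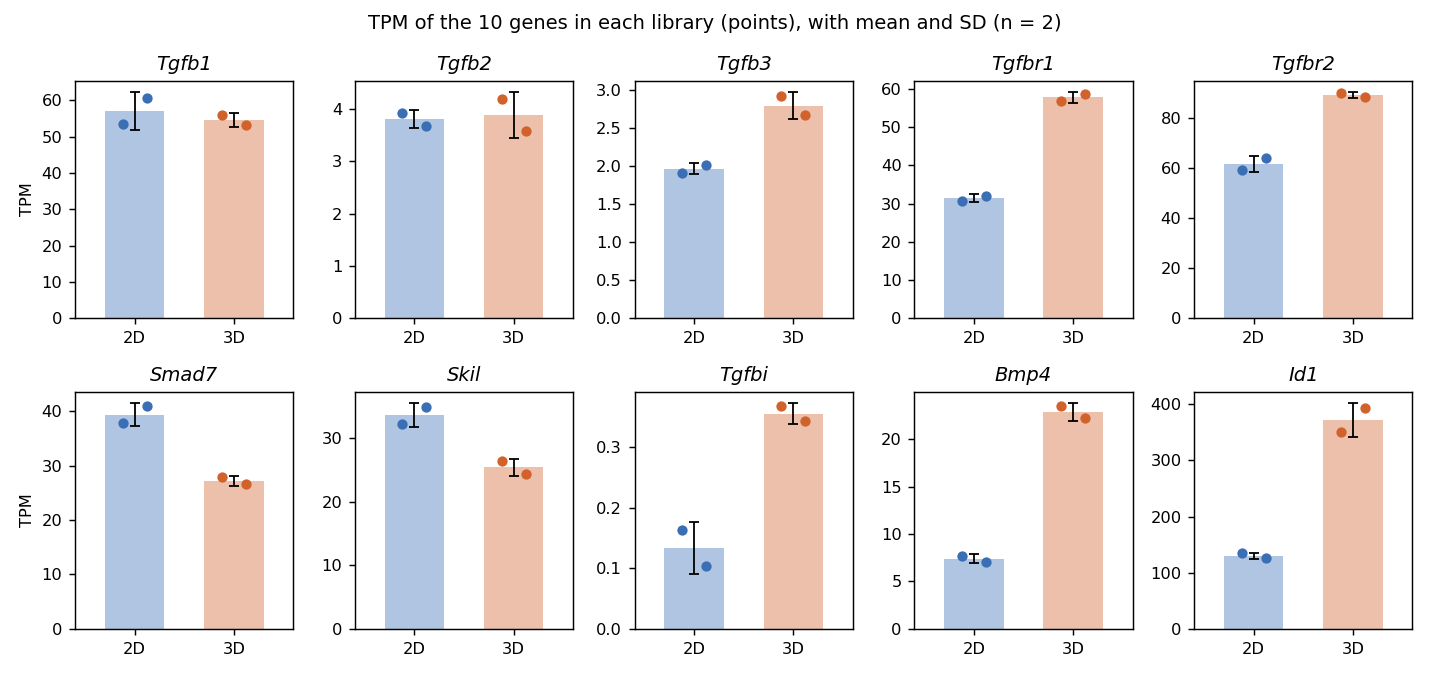
Bars give the mean TPM of each gene in 2D (blue) and 3D (orange), points the 2 libraries, and error bars the SD (n = 2), with a separate TPM axis from 0 for each gene. Both 3D points lie above both 2D points for Tgfbr1, Tgfbr2, Bmp4, Id1, Tgfb3 and Tgfbi and below them for Smad7 and Skil, and they mix for Tgfb1 and Tgfb2.

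Of the 10 genes, 9 reached a mean of 1 TPM and were tested, and Tgfbi was not. With limma, 4 of the 9 were higher in 3D at an adjusted p-value under 0.05 (Tgfbr1, Tgfbr2, Bmp4 and Id1), 2 were lower (Smad7 and Skil) and 3 passed in neither direction (Tgfb1, Tgfb2 and Tgfb3). Of all tested genes 50.5% passed, 23.4% higher and 27.1% lower, so that passing as such says little about these genes. The median log2 fold change was 0.35 over the 9 genes and -0.04 over all 14116 tested. Libraries of the cultures did not overlap for 7 of the 9 genes (5 above and 2 below in 3D), beside 77.5% of all tested genes (35.9% above and 41.6% below). Each of the 10 genes has the same position in GENCODE M21 as in the deposited table, and none shares exon sequence with another gene on its own strand.

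None of the 3 TGF-beta ligands passed the test between cultures. Tgfb1 (ENSMUSG00000002603, chromosome 7, 25687002 to 25705077, GRCm38), the ligand best known in liver injury and fibrosis, was measured at 53.4 and 60.7 TPM in 2D and at 55.9 and 53.2 TPM in 3D. The cultures overlapped, with the highest and the next-lowest value both in 2D. Its log2 fold change of 3D over 2D was -0.06 (SE 0.08, adjusted p from limma 0.548), with a 95% interval of -0.27 to 0.15. Tgfb2 (ENSMUSG00000039239, chromosome 1, 186622792 to 186705989), a ligand that depends more on the coreceptor Tgfbr3 for binding, was at 3.93 and 3.68 TPM in 2D and at 4.19 and 3.58 TPM in 3D. Both 2D values lay between the 3D values. The log2 fold change was 0.02 (SE 0.12, adjusted p from limma 0.888), with a 95% interval of -0.28 to 0.33.

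Tgfb3 (ENSMUSG00000021253, chromosome 12, 86056745 to 86079041), the remaining TGF-beta isoform, had 1.92 and 2.02 TPM in 2D and 2.92 and 2.67 TPM in 3D. Both 3D libraries were above both 2D libraries, but the log2 fold change of 0.35 (SE 0.11, adjusted p from limma 0.0564) missed the threshold. After quantile normalization it was 0.39 and passed (adjusted p from limma 0.0357), as it did under 4 of 12 alternatives in all. Taken as a share of the summed TPM of the 3 isoforms, Tgfb1 made up 90.8% ± 0.904 in 2D and 89.1% ± 0.548 in 3D (SD, n = 2 each). Tgfb2 held 6.08% ± 0.768 and 6.34% ± 0.447, and Tgfb3 3.14% ± 0.136 and 4.56% ± 0.10. Tgfb1 was the main isoform in every library. The sum itself averaged 62.8 ± 5.07 TPM in 2D against 61.2 ± 2.54 TPM in 3D.

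Receptors for these ligands were higher in 3D. Tgfbr1 (ENSMUSG00000007613, chromosome 4, 47353222 to 47414931), the type I receptor kinase that phosphorylates SMADs, was at 30.7 and 32.1 TPM in 2D and at 56.9 and 58.7 TPM in 3D. The lower 3D library was well above the higher 2D library, and the ratio of means was 1.84. Its log2 fold change was 0.86 (SE 0.06, adjusted p from limma 0.000702), and 6.04% of all tested genes rose at least as far. Tgfbr2 (ENSMUSG00000032440, chromosome 9, 116084293 to 116175360), the type II receptor that binds ligand first, was at 59.5 and 64.1 TPM in 2D and at 90.1 and 88.6 TPM in 3D. Again the cultures did not overlap, with a log2 fold change of 0.53 (SE 0.06, adjusted p from limma 0.00236). Such a rise was reached by 13.1% of tested genes.

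The ratio of Tgfbr2 to Tgfbr1 TPM was 1.94 and 1.99 in 2D and 1.58 and 1.51 in 3D. The summed TPM of both receptors stood to that of the 3 ligands as 1.52 and 1.45 in 2D and as 2.33 and 2.48 in 3D. Neither ratio overlapped between cultures. That of receptors to ligands sets genes called higher over genes that passed in neither direction, so its rise follows from that choice. These ratios were not tested.

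Both pathway inhibitors were lower in 3D. Smad7 (ENSMUSG00000025880, chromosome 18, 75367529 to 75395935), an inhibitory SMAD that blocks and degrades the activated receptor, was at 37.8 and 40.9 TPM in 2D and at 27.9 and 26.6 TPM in 3D. Both 3D libraries lay under both 2D libraries. The log2 fold change was -0.52 (SE 0.07, adjusted p from limma 0.00414), and 14.9% of all tested genes had a value as low or lower. Skil (ENSMUSG00000027660, chromosome 3, 31095058 to 31122577), which encodes SnoN, a nuclear corepressor of SMAD complexes, was at 32.3 and 35.0 TPM in 2D and at 26.4 and 24.4 TPM in 3D. Its libraries did not overlap either, although the gap was narrower than for Smad7. The log2 fold change was -0.39 (SE 0.07, adjusted p from limma 0.0126), and 21.4% of tested genes were as low or lower. Without 3D replicate 2 it was -0.34 and missed the threshold (adjusted p from limma 0.0639).

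Bmp4 and Id1 had the largest differences of the tested genes among the 10. Bmp4 (ENSMUSG00000021835, chromosome 14, 46383520 to 46390669), a BMP ligand, was at 7.73 and 7.09 TPM in 2D and at 23.5 and 22.2 TPM in 3D. Every 3D value was far above the 2D values, with a ratio of means of 3.08. The log2 fold change was 1.50 (SE 0.08, adjusted p from limma 0.000512). With a pseudocount of 5 in place of 1 it was 1.17, still past the threshold (adjusted p from limma 0.000492). Id1 (ENSMUSG00000042745, chromosome 2, 152736251 to 152737410), an inhibitor of basic helix-loop-helix factors, was at 134 and 127 TPM in 2D and at 351 and 393 TPM in 3D. It was the most abundant gene here in every library, and its ratio of means was 2.85. The log2 fold change was 1.50 (SE 0.07, adjusted p from limma 0.000406). For each of these genes 1.79% of all tested genes rose at least as far.

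Bmp4 stood between Tgfb1 and Tgfb2 in both cultures. Its TPM relative to that of Tgfb1 was 0.145 and 0.117 in 2D and 0.421 and 0.417 in 3D, so that Tgfb1 remained the more abundant in all libraries. The ratio of Id1 to Smad7 TPM was 3.55 and 3.10 in 2D and 12.6 and 14.8 in 3D. It pairs a gene called higher with a gene called lower, so its rise follows from that choice. Neither ratio was tested, and neither measures the activity of a pathway.

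Tgfbi (ENSMUSG00000035493, chromosome 13, 56609523 to 56639562), a secreted matrix protein known to be induced by TGF-beta in many cells, was near the lower end of the table. It was at 0.164 and 0.104 TPM in 2D and at 0.368 and 0.343 TPM in 3D. Both 3D values were the higher ones, all of them under 1 TPM. With no filter on low values its log2 fold change was 0.26 (adjusted p from limma 0.140). The pseudocount of 1 is larger than any of these values and shrinks that figure, whereas the ratio of means was 2.66.

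The rest of the pathway was described from lists of 107 genes, the 10 included, of which 100 were in the table and 63 were tested. Of these, 21 were higher in 3D, 21 lower, and 21 passed in neither direction, beside 23.4% higher and 27.1% lower among all tested genes. The median log2 fold change was 0.01, against -0.04 over all tested genes. Without the 10, 17 of 54 were higher and 19 lower, with a median of -0.02.

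**Figure D2:**
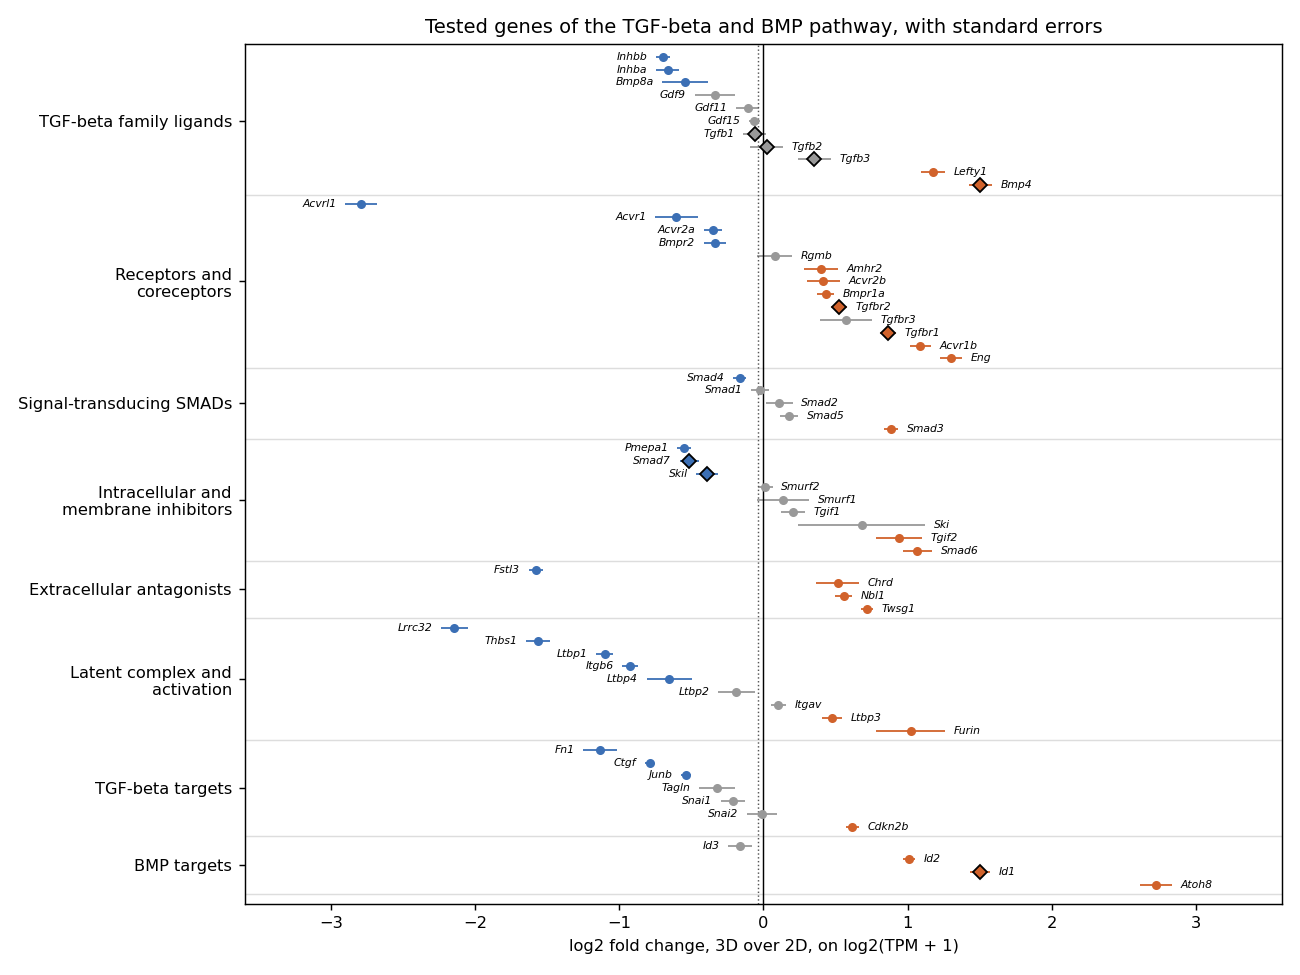
Log2 fold change of 3D over 2D on log2(TPM + 1), with its standard error, for the tested genes reported from 8 lists (Tgfbr1, Tgfbr2, Bmp4, Id1, Smad7, Skil and the TGF-beta isoforms as diamonds). Orange marks genes higher and blue genes lower at an adjusted p from limma under 0.05, grey the others, and the dotted line the median of all tested genes at -0.04. Acvrl1 lies farthest to the left at -2.79 and Atoh8 farthest to the right at 2.72.

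Among the ligands of the wider family, 2 of 11 tested genes were higher (Bmp4 and Lefty1) and 3 lower (Inhbb, Inhba and Bmp8a), with a median log2 fold change of -0.06. Over all tested genes 23.4% were higher and 27.1% lower. Lefty1, a member that antagonises Nodal, was at 14.7 and 13.8 TPM in 2D and at 31.7 and 35.3 TPM in 3D (log2 fold change 1.18, adjusted p from limma 0.000827). Inhbb, which encodes the subunit of activin B, fell from 68.8 and 69.1 TPM to 42.1 TPM in both 3D libraries (log2 fold change -0.70, adjusted p from limma 0.000736). Inhba, the activin A subunit, was lower by -0.66 on the same scale (adjusted p from limma 0.00328). Bmp8a, a BMP ligand, was called at -0.54 (adjusted p from limma 0.0425), and the call was lost without 2D replicate 1 (0.137), 2D replicate 2 (0.107) or 3D replicate 2 (0.135) and with no filter (0.0902). The most abundant ligand was Gdf15, a stress-induced cytokine that signals through a receptor outside this family. It was at 189 and 189.8 TPM in 2D and at 183 and 179.8 TPM in 3D, a log2 fold change of -0.06 (adjusted p from limma 0.205).

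Of 13 tested receptors and coreceptors, 7 were higher and 4 lower, with a median of 0.42. Over all tested genes 23.4% were higher and 27.1% lower, with a median of -0.04. Without Tgfbr1 and Tgfbr2, 5 of 11 were higher and 4 lower, and the median was 0.40. The summed TPM of the list without Tgfbr1 and Tgfbr2 was nonetheless 186 and 207 in 2D and 173 and 183 in 3D. Without 3D replicate 1, 6 of the 13 passed, 5 higher and 1 lower. Acvrl1 (ALK1), a type I receptor for Gdf2 and Bmp10, had the largest fall, from 33.9 and 39.8 TPM in 2D to 4.74 and 4.20 TPM in 3D. Its log2 fold change was -2.79 (SE 0.11, adjusted p from limma 0.000314), which 0.128% of all tested genes reached. Eng (endoglin), a coreceptor that works with Acvrl1 in endothelium, moved the other way, from 6.21 and 6.57 TPM to 17.1 and 17.3 TPM (log2 fold change 1.30, adjusted p from limma 0.000581). Both genes are known from blood vessels. The endothelial markers Pecam1, Cdh5, Kdr, Stab2 and Lyve1 were each below 0.7 TPM in every library, and the cells that made these transcripts were not tested. Transcripts of Gdf2 and Bmp10 were below 0.1 TPM, and ligand in the medium was not measured. Amhr2 was called higher at 0.40 (adjusted p from limma 0.0447), but not with the replicate block (0.0519) or with no filter (0.0971). Tgfbr3, at 0.57, did not pass (adjusted p from limma 0.0545), though it did after median centring (0.0443).

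Acvr1 (ALK2), a type I receptor for BMPs, was at 47.2 and 55.5 TPM in 2D and at 29.3 and 37.9 TPM in 3D (log2 fold change -0.60, adjusted p from limma 0.0270). The call was lost without 2D replicate 1 (adjusted p from limma 0.0653), 2D replicate 2 (0.132) or 3D replicate 1 (0.0708) and with no filter on low values (0.0645), but not without 3D replicate 2. Of the other BMP receptors, Bmpr1a was higher by 0.43 and Bmpr2 was called lower at -0.34 (adjusted p from limma 0.00461 and 0.0201). The Bmpr2 call was lost without 2D replicate 2 (adjusted p from limma 0.0625), 3D replicate 1 (0.0682) or 3D replicate 2 (0.0945). Among activin receptors, Acvr1b was at 1.09 (adjusted p from limma 0.000755) and Acvr2a at -0.35 (0.00917), the latter not called without 3D replicate 1 (0.056). Acvr2b, at 0.42 (adjusted p from limma 0.0372), lost its call without any 1 of the 4 libraries (0.0739 to 0.162), with the replicate block (0.0557) and with no filter (0.0787).

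Of the 5 tested SMADs that carry the signal, 1 was higher and 1 lower, beside 23.4% and 27.1% of all tested genes. Smad3, which is phosphorylated by Tgfbr1, rose from 64.6 and 67.8 TPM to 125 and 121 TPM, a log2 fold change of 0.89 (SE 0.05, adjusted p from limma 0.000526). Its close relative Smad2 was at 55.8 and 47.3 TPM in 2D and at 57.2 and 53.8 TPM in 3D, which overlapped (log2 fold change 0.11, adjusted p from limma 0.383). Smad4, the common partner, had a log2 fold change of -0.17 (adjusted p from limma 0.0321), and the call was lost without 2D replicate 2 (0.0881), 3D replicate 1 (0.159) or 3D replicate 2 (0.111), with the replicate block (0.0697) and under 3 further settings. The BMP SMADs Smad1 and Smad5 did not pass, with log2 fold changes of -0.02 and 0.18 (adjusted p from limma 0.791 and 0.0717), and Smad9 was below 0.5 TPM.

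Inhibitors inside the cell moved in both directions, with 2 of 9 tested genes higher and 3 lower, and a median of 0.13. The shares over all tested genes were 23.4% higher and 27.1% lower. Pmepa1, a membrane protein that is induced by TGF-beta and sequesters its SMADs, went the way of Smad7 and Skil, from 114 and 119 TPM to 78.0 and 80.9 TPM (log2 fold change -0.55, adjusted p from limma 0.00152). Smad6, the inhibitory SMAD that mainly restrains BMP signals and is induced by them, rose from 3.46 and 3.14 TPM to 7.67 and 8.38 TPM (log2 fold change 1.07, adjusted p from limma 0.00182, and 0.65 with a pseudocount of 5). Tgif2, a corepressor, rose by 0.94 on this scale (adjusted p from limma 0.00903), whereas Tgif1 and the ubiquitin ligase Smurf2 (which shares exon sequence with Gm27322 on its own strand), at 0.20 and 0.01, did not pass (adjusted p from limma 0.110 and 0.836).

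Of 4 tested secreted antagonists, 3 were higher and 1 lower, beside 23.4% and 27.1% of all tested genes. Fstl3, which binds activins, fell from 77.4 and 77.0 TPM to 25.4 and 24.9 TPM (log2 fold change -1.58, adjusted p from limma 0.000230). Twsg1, a modulator of BMP ligands, rose from 72.5 and 71.8 TPM to 121 and 118 TPM (log2 fold change 0.72, adjusted p from limma 0.000594). Nbl1 and Chrd, which bind BMPs, were higher by 0.56 and 0.51 (adjusted p from limma 0.00265 and 0.0434). The Chrd call was lost without 2D replicate 1 (adjusted p from limma 0.140), 3D replicate 1 (0.170) or 3D replicate 2 (0.0919), with the replicate block (0.0701) and with no filter (0.0890). For the genes that store and release latent TGF-beta, 5 of 9 tested were lower and 2 higher, with a median of -0.65. Here too the shares over all tested genes were 27.1% lower and 23.4% higher.

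Lrrc32 (GARP), which anchors latent TGF-beta on the cell surface, fell from 26.8 and 29.9 TPM to 5.89 and 5.39 TPM (log2 fold change -2.14, adjusted p from limma 0.000341). Thbs1 (thrombospondin), a matrix protein able to activate latent TGF-beta, fell from 35.1 and 39.1 TPM to 12.3 and 11.4 TPM (log2 fold change -1.57, adjusted p from limma 0.000504). The others that were lower were Ltbp1, Itgb6 and Ltbp4, at -1.10, -0.92 and -0.65 (adjusted p from limma 0.000479, 0.000600 and 0.0256). The Ltbp4 call was lost without 2D replicate 2 (adjusted p from limma 0.0973) or 3D replicate 1 (0.101) and with no filter (0.0588). Ltbp1 is a latent-TGF-beta binding protein and Itgb6 a subunit of an integrin that activates TGF-beta. In the other direction, Ltbp3 rose from 159 and 179.6 TPM to 237 and 233 TPM (log2 fold change 0.47, adjusted p from limma 0.00556). Furin, the protease that cleaves the TGF-beta precursor, was uneven in 2D, at 111 and 67.9 TPM, and stood at 169.8 and 186 TPM in 3D. Its log2 fold change was 1.02 (adjusted p from limma 0.0232), and the call was lost without 3D replicate 1 (0.130) or 3D replicate 2 (0.143), with the replicate block (0.0785) and with no filter (0.0568). Without 2D replicate 2 the value was 0.67, and without 2D replicate 1 it was 1.37. Itgav, a further gene of this latent-TGF-beta list, was at 113.9 and 114.1 TPM in 2D and at 127 and 118 TPM in 3D. The log2 fold change of Itgav, 0.10, did not pass (adjusted p from limma 0.159).

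Of 8 tested genes commonly induced by TGF-beta, 4 were lower and 1 higher, beside 27.1% lower and 23.4% higher among all tested genes, with a median of -0.43. Ctgf, a matricellular protein, fell from 524 and 517 TPM to 299 and 302 TPM (log2 fold change -0.79, adjusted p from limma 0.000331). Fn1, fibronectin, fell from 279 and 346 TPM to 149 and 134 TPM (log2 fold change -1.13, adjusted p from limma 0.00234). Junb, an AP-1 factor, fell from 860.5 and 889 TPM to 599 and 606 TPM (log2 fold change -0.54, adjusted p from limma 0.000704). The gene called higher was Cdkn2b, an inhibitor of cyclin-dependent kinases that TGF-beta induces in epithelial cells, which rose by 0.62 (adjusted p from limma 0.000991). All of these genes also answer to other signals.

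Of 4 tested BMP targets, 3 were higher and none lower, beside 23.4% higher among all tested genes, with a median of 1.25. Without Id1, 2 of 3 were higher. No difference between the target lists was tested, and the levels of their genes do not measure the activity of a pathway. Atoh8, a transcription factor, rose from 2.37 and 1.86 TPM to 19.3 and 19.6 TPM, a log2 fold change of 2.72 (SE 0.11, adjusted p from limma 0.000320), which 0.276% of tested genes reached. With a pseudocount of 5 it was 1.78. Id2, a relative of Id1, rose from 102 and 98.4 TPM to 200.2 and 205 TPM (log2 fold change 1.01, adjusted p from limma 0.000323). Id3, of the same family, was at 88.4 and 82.1 TPM in 2D and at 71.2 and 81.1 TPM in 3D, and its log2 fold change of -0.16 did not pass (adjusted p from limma 0.161). Hamp, which encodes hepcidin, was below 0.5 TPM in every library. The summed TPM of the hepatocyte markers given above moved in the same direction as the BMP targets, and the biliary markers moved in both directions. The part of either in the BMP targets was not tested.

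**Figure D3:**
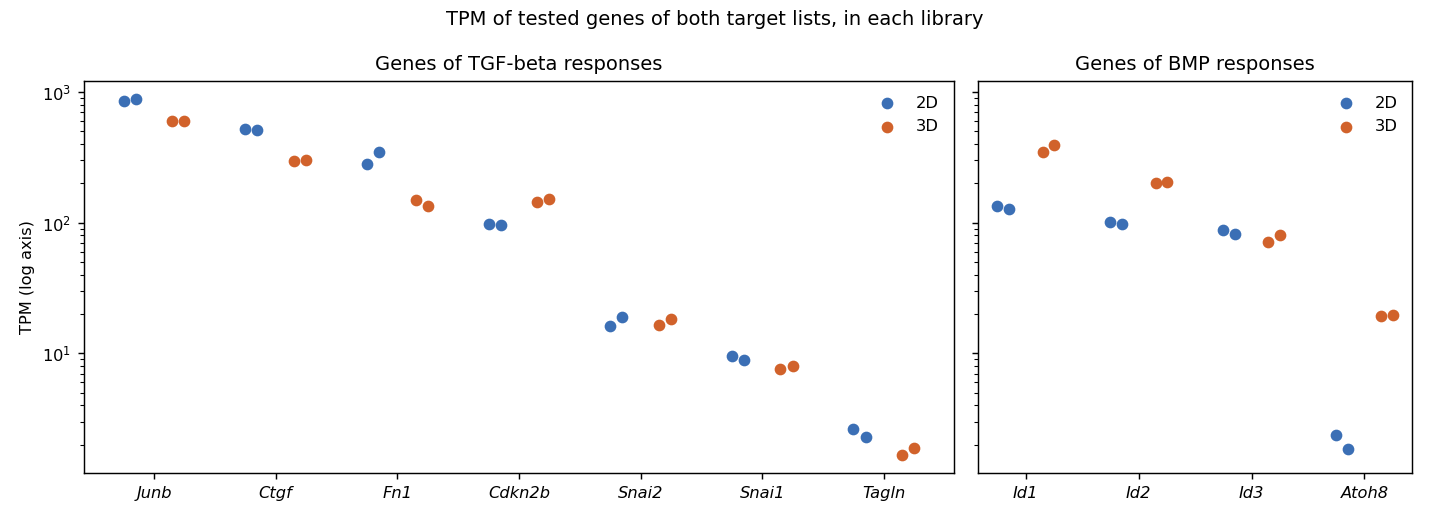
TPM, on a log axis, of the tested genes reported from the TGF-beta target list (left) and the BMP target list (right) in each library, 2D in blue and 3D in orange, in order of mean level. Ctgf, Fn1 and Junb lie lower in 3D and Cdkn2b higher on the left, and on the right Id1, Id2 and Atoh8 lie higher in 3D while Id3 does not.

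The values of the 9 tested genes under other settings are plotted together. Tgfbr1, Tgfbr2, Bmp4, Id1 and Smad7 passed in all 13 alternatives. Tgfbr1 ranged from 0.79 to 0.89, Tgfbr2 from 0.47 to 0.58, and Smad7 from -0.57 to -0.46. Bmp4 ranged from 1.17 to 1.61 and Id1 from 1.42 to 1.59. Skil passed in 12 of 13, Tgfb3 in 4 of 12, and Tgfb1 and Tgfb2 in none.

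**Figure D4:**
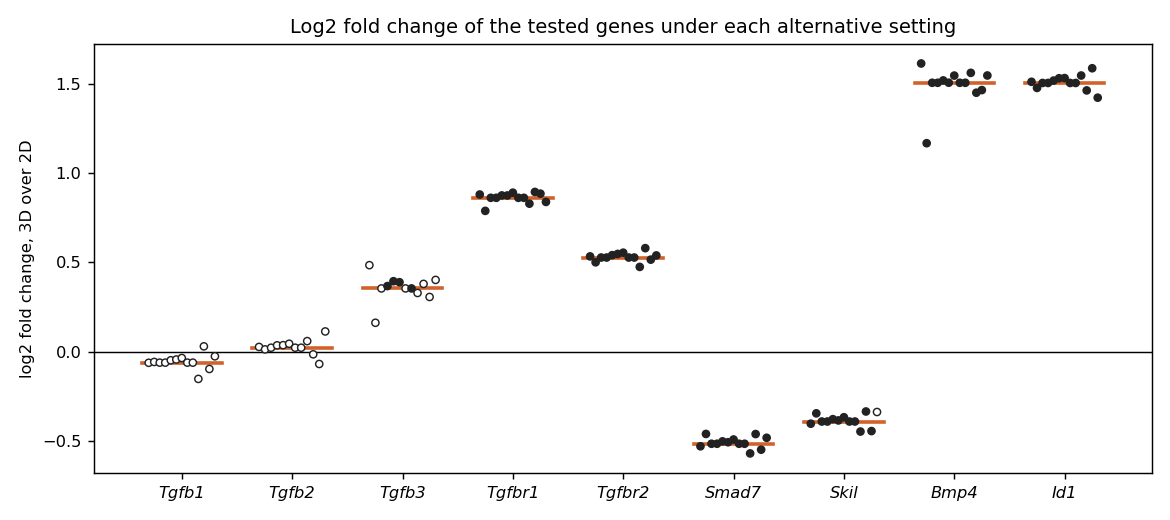
Each point is the log2 fold change of 3D over 2D of a gene under 1 alternative setting, filled where the adjusted p from limma was under 0.05 and open otherwise, and the orange line is the value as reported. Points of Tgfb1 and Tgfb2 lie on both sides of 0 and are all open, while those of Tgfbr1, Tgfbr2, Smad7, Bmp4 and Id1 are all filled.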

How the data were processed

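Stranded RNA-seq had been run on AML12 cells, with 2 libraries per culture (2D, 3D). Reads were trimmed by the authors (cutadapt 1.8.3, Trimmomatic 0.36), mapped to GRCm38 (HISAT2 2.0.5) and quantified genes of Ensembl release 93 (StringTie 1.3.4). They deposited TPM for each library, one column apiece with no pooling. The same table holds the authors' fold changes and p-values from DESeq2, which were not used. TPM retains no depth, so no counting error could be given.

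Libraries were assigned to cultures by their labels. Genes with a mean of at least 1 TPM entered a linear model of log2(TPM + 1), fitted in R 4.3.3 by limma 3.58.1 (trend and robust variance), culture being the only term. Tests were two-sided, and p-values were adjusted by Benjamini-Hochberg over all 14116 genes. The script was tested on simulated data. Figures were drawn with matplotlib 3.10.9.

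The members and the lists were chosen with earlier results of these data known. Named genes are the 10 members and, in each of 8 pathway lists, the 3 tested genes with the highest mean TPM and the 2 called genes with the largest absolute log2 fold change. Other pathway genes were named after their values were seen. A single gene of the TGF-beta target list counts in the totals but is not reported here. Alternatives were pseudocounts of 0.1 and 5, other filters, median centring, quantile normalization, rescaling without mitochondrial and the 20 highest genes, a replicate block, a constant prior variance, and each library left out. Upstream windows came from RefSeq (GRCm38.p6), and exon overlaps from GENCODE M21.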

Additional observations from a re-analysis of the deposited data

How the results depend on the processing

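The labels do not state that replicate numbers pair the libraries, and the deviations of same-numbered libraries had a correlation of -0.0549 across 14116 genes. With the replicate block, 6 of the 9 tested members were called, as without it, 38 of the pathway genes against 42, and 6248 genes of the whole table against 7122. Across the fits that each left out 1 library, 5 to 6 members were called, 4 of them higher and 1 to 2 lower, the lowest count being without 3D replicate 2. In those fits a culture had 1 library, assumed to vary like the others. They called 33 to 38 pathway genes and 4720 to 5954 genes of the whole table, the lowest of both without 3D replicate 1. In the other alternatives 6 or 7 members were called. Of 492 values of the 38 named genes, 468 kept their direction and their side of the threshold, 16 lost the call, 4 gained it and 4 changed sign. The changes of sign were those of Tgfb1 and Smad2 without 2D replicate 2, and of Tgfb2 without 2D replicate 2 (-0.0150) or 3D replicate 1, none of them called in any fit. With each library left out in turn, the log2 fold change ran from -0.1525 to 0.0296 for Tgfb1, from -0.0690 to 0.113 for Tgfb2 and from -0.0084 to 0.2246 for Smad2. The cause was not tested. TPM gives no depth, so what depth limits for Tgfbi and other genes under 1 TPM is unknown.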

Other observations

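Replicates of Ski, a corepressor related to Skil, disagreed in 2D, at 16.1 TPM in replicate 1 and 41.8 TPM in replicate 2, while both 3D libraries were close, at 42.7 and 41.9 TPM. Its log2 fold change of 0.68 did not pass (SE 0.44, adjusted p from limma 0.253). Ski was chosen after its values were seen.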
